A study of Mus musculus with 12 samples.

Results

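Krt6a, Krt6b, Krt16 and Krt75 are the keratins that mark the companion layer and inner bulge of the mouse hair follicle or wounded and hyperproliferative epidermis. These 4 genes were listed by name, with earlier results of these data known, and all 4 were among the 17853 genes measured. They were read through 21 of 221205 exon probe sets that carried a single gene symbol, 4 each for Krt6a, Krt6b and Krt16 and 9 for Krt75. The cells were sorted from the back skin epidermis of age-matched female mice on a C57BL6/CBA background whose hair follicles were in telogen, their resting phase. Every mouse carried the Gata6-mtomato reporter, which marks cells that express the transcription factor Gata6, and no untagged strain was compared. The 4 populations were Gata6+Itga6− cells (reporter positive, without the basal integrin chain Itga6), Gata6+Itga6+ cells (reporter positive and basal), CD34+ cells (Itga6 positive, reporter negative) and the remaining basal cells (Itga6 positive, negative for both the reporter and CD34). Each population had 3 arrays, called biological replicates in the labels, where the number of mice behind each was not given. CD34 with Itga6 is the usual gate for bulge stem cells of the outer root sheath.

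Keratins build intermediate filaments from obligate pairs of a type I and a type II chain. Krt6a, Krt6b and Krt75 are type II chains, and Krt16, like its close relative Krt17, is a type I chain. The companion layer is a single sheet of cells between the outer and inner root sheaths, and in telogen the related inner bulge cells hold the club hair in place; Krt6 chains and Krt75 are their known markers. In interfollicular epidermis Krt6a, Krt6b and Krt16 are normally almost silent and are switched on within hours of wounding, and in inflammation and psoriasis.

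Values are given as log2 of the deposited array intensity plus 1, and a gene's level is the median of its probe sets. That the deposited intensities were on a linear scale was inferred from the values. The added 1 shrinks differences between dim values. As a guide to the level of unexpressed genes, the 95th percentile of the mean levels of 1144 olfactory and vomeronasal receptor genes was used. It stood at 2.42 and is called the silent level here. Because it came from gene levels, it is only a rough guide for a single probe set. Levels of different genes or probe sets are not set against each other, because probes differ in brightness. Upper quartiles of intensity ran from 12.1 to 17.6 over the 12 arrays. Arrays of 1 population correlated at 0.935 to 0.957 and arrays of different populations at 0.828 to 0.941 (Pearson r over all genes), and no 2 arrays held identical values. Of the sort genes, Gata6 and Cd34 followed the labels. Gata6 averaged 5.84 in Gata6+Itga6− cells, 4.39 in Gata6+Itga6+ cells, 2.84 in CD34+ cells and 2.73 in the remaining basal cells, and Cd34 averaged 1.96, 1.78, 7.95 and 1.66 in the same order. Itga6 was lowest in Gata6+Itga6− cells, the population sorted without it, but at 6.02 lay well above the silent level there. It averaged 7.28, 6.76 and 7.67 in the others. Of 14 bulge stem cell markers, 11 were called higher and 0 lower in CD34+ than in remaining basal cells, where 3.32% of all genes were called higher and 1.67% lower. The 11 include Cd34 itself, on which the cells were sorted. The 3 arrays in a population limit the precision of every value, and in these bulk samples fewer cells of a type and less RNA per cell cannot be told apart.

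Of the 4 keratins, 3 differed across the populations and each had its own pattern. Krt6a was highest in CD34+ cells by a wide margin, Krt75 was highest there by a small one, Krt16 was highest in Gata6+Itga6− cells, and the gene level of Krt6b lay under the silent level in every population. The moderated F test of limma gave adjusted p = 0.000108 for Krt6a, 0.0147 for Krt75, 0.0164 for Krt16 and 0.851 for Krt6b, and 9.38% of all genes were called by this test. "Called" means an adjusted p (Benjamini-Hochberg, all 17853 genes of the test) under 0.05. The Krt16 and Krt75 calls each rested on single arrays: the F test gave Krt16 0.0687 without Gata6+Itga6− replicate 1 and 0.0671 without replicate 2, and Krt75 0.0644 without CD34+ replicate 1 and 0.0578 without replicate 3. The Krt6a call held without any 1 array, at no more than 0.000966.

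**Figure D1:**
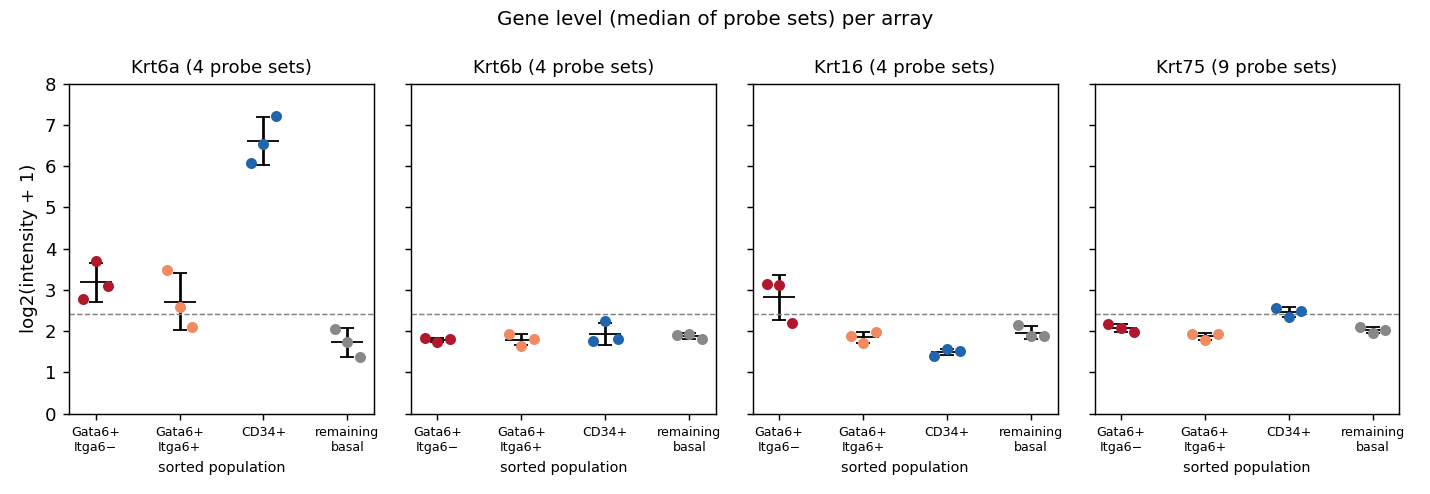
Gene level of each of the 4 keratins (y axis, log2 of intensity plus 1, median of its probe sets) on each of the 12 arrays, by sorted population (x axis); points are arrays, bars the mean ± SD (n = 3), and the dashed line the silent level of 2.42. The CD34+ arrays of Krt6a lie between 6.07 and 7.22, above every other array, while all Krt6b points lie under the line.

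Krt6a is the type II chain that is the partner of Krt16 and Krt17 in companion layer and inner bulge cells and in wound-edge keratinocytes. Its level was 2.77, 3.71 and 3.08 in Gata6+Itga6− cells, 3.47, 2.58 and 2.09 in Gata6+Itga6+ cells, 6.07, 6.53 and 7.22 in CD34+ cells and 2.06, 1.74 and 1.37 in the remaining basal cells. All CD34+ arrays lay above all others, the Gata6+ populations overlapped each other, and the gene level of the remaining basal cells was under the silent level on all 3 arrays. Krt6a averaged 6.60 ± 0.58 in CD34+ cells and 1.72 ± 0.34 in the remaining basal cells (SD, n = 3 each), a log2 change of 4.88 (SE 0.40, limma adjusted p = 4.26e-05). By single probe sets, CD34+ cells were 16.3-fold higher in 4832157, at least 22.3-fold higher in 4352194 and at least 17.1-fold higher in 4699203. The last 2 were taken against the silent level and are rough bounds.

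Both Gata6+ populations held far less Krt6a than CD34+ cells. It averaged 3.19 ± 0.48 in Gata6+Itga6− cells and was 10.7-fold lower there than in CD34+ cells (log2 change -3.42, SE 0.40, limma adjusted p = 0.000347). In Gata6+Itga6+ cells it averaged 2.71 ± 0.70 and was 14.8-fold lower than in CD34+ cells (log2 change -3.89, SE 0.40, limma adjusted p = 0.000286). These 3 comparisons share the CD34+ arrays. The order below CD34+ cells was not resolved. Gata6+Itga6− cells exceeded Gata6+Itga6+ cells by 0.47 (95% interval -0.41 to 1.36, limma adjusted p = 0.728), and Gata6+Itga6+ cells exceeded the remaining basal cells by 0.99 (0.10 to 1.88, adjusted p = 0.371). Gata6+Itga6− cells exceeded the remaining basal cells by 1.46 (0.58 to 2.35) with all arrays apart, which missed the threshold at adjusted p = 0.0701. Over 17853 genes, the arrays of these last 2 populations were apart for 19.8%. That difference passed in some other settings and stayed uncalled in others, among them the fit with replicate number as a block. It passed when dim probe sets were left out (1.60, limma adjusted p = 0.0324) and after quantile normalization (1.49, 0.0299). It also passed with the dimmest genes left out (1.46, 0.0391) and without Gata6+Itga6+ replicate 1 (1.46, 0.0396).

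The Krt6a signal came from 3 of its 4 probe sets. In CD34+ cells probe set 4352194 read 6.20, 7.07 and 7.44, probe set 4699203 read 5.93, 6.64 and 6.99, and probe set 4832157 read 6.64, 6.41 and 7.58. In the remaining basal cells they read 2.62, 2.11 and 2.07, then 1.50, 1.38 and 1.24, and then 3.15, 3.90 and 1.50, so that the mean of 4832157, 2.85, lay above the silent level there. The fourth, 4440251, read 1.73, 2.42 and 1.80 there and 1.07 to 1.33 in the remaining basal cells, and no comparison called it. Fitted alone among all 221205 probe sets, the 3 bright ones were called higher in CD34+ cells than in the remaining basal cells, by 4.64, 5.15 and 4.02 in the order above (limma adjusted p = 0.000902, 3.49e-05 and 0.00352), where 1.77% of all probe sets were called higher. The same 3 were called lower in Gata6+Itga6− cells than in CD34+ cells (2.43% of all probe sets) and lower in Gata6+Itga6+ cells than in CD34+ cells (0.988%). Of the 4, only 4699203 was called between Gata6+Itga6− and remaining basal cells. It read 3.27, 3.18 and 3.51 in Gata6+Itga6− cells, against 1.50, 1.38 and 1.24 in the remaining basal cells, and was called higher by 1.95 (SE 0.36, limma adjusted p = 0.0199; 1.37% of all probe sets were called higher). The same difference was 0.79 in 4352194, 1.20 in 4832157 and 0.16 in 4440251 (limma adjusted p = 0.673, 0.464 and 0.878), and the arrays of 4352194 and 4832157 overlapped.

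**Figure D2:**
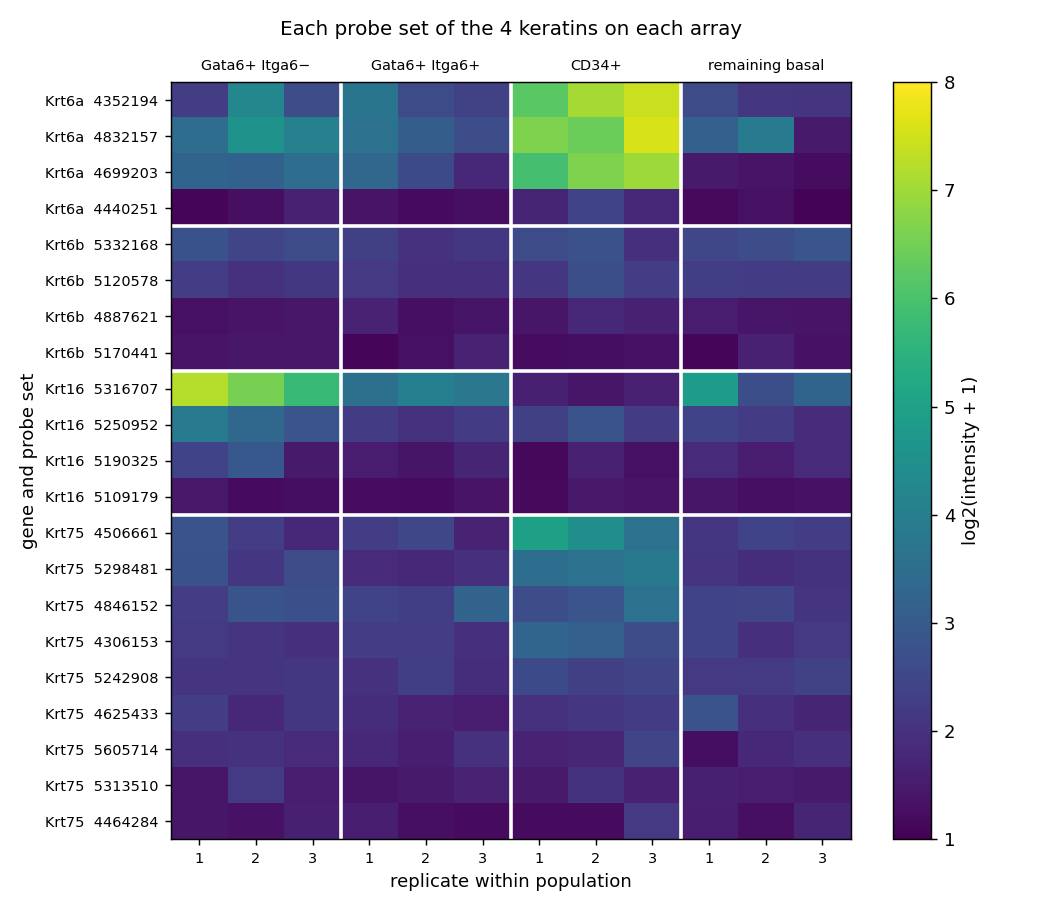
All 21 probe sets of the 4 keratins (rows, with their numbers) on each array (columns, by population and replicate), coloured by log2 of intensity plus 1. Of the Krt6a rows 3 are bright in the CD34+ columns, a single Krt16 row is bright in the Gata6+Itga6− columns, and the Krt6b rows do not exceed 2.84.

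Krt6b, the neighbour of Krt6a on chromosome 15 and nearly the same chain in sequence, had a gene level under the silent level in all populations. Its level was 1.82, 1.73 and 1.80 in Gata6+Itga6− cells, 1.92, 1.65 and 1.82 in Gata6+Itga6+ cells, 1.77, 2.23 and 1.80 in CD34+ cells and 1.91, 1.93 and 1.80 in the remaining basal cells. The populations overlapped in all 6 comparisons. Differences ran from -0.15 to 0.05, with limma adjusted p from 0.663 to 0.991. The 95% interval of the difference between CD34+ and remaining basal cells was -0.24 to 0.35, and over the 6 comparisons the interval bounds ran from -0.44 to 0.35. Its 4 probe sets lay between 1.09 and 2.84 on all arrays, and none was called. One of them, 5332168, averaged 2.61 in Gata6+Itga6− cells, 2.15 in Gata6+Itga6+ cells, 2.43 in CD34+ cells and 2.65 in the remaining basal cells, slightly above the silent level in all but Gata6+Itga6+ cells.

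The similarity of the Krt6 genes raises the question of shared signal on the array. The 3 bright Krt6a probe sets differed between CD34+ and remaining basal cells by 4.02 to 5.15, whereas the 4 Krt6b probe sets differed by -0.22 to 0.19 between the same arrays. Thus no step of the Krt6a kind was seen in the probe sets assigned to Krt6b. Only 1 of these 4 had a population mean above the silent level. Probe sets with several symbols had been left out beforehand. Over the 12 arrays the Krt6a probe sets followed each other (Pearson r 0.80 to 0.95, median 0.89, 6 pairs). Pairs of a Krt6a and a Krt6b probe set had r from -0.33 to 0.73 (median 0.21, 16 pairs). Pairs within Krt6b had r from -0.47 to 0.68 (median -0.04, 6 pairs). These correlations describe arrays of 4 populations and share their processing. The reverse, whether the bright Krt6a probe sets also bind Krt6b transcripts, was not tested, since the probe sequences were not used here. The CD34+ signal is therefore given as that of the probe sets assigned to Krt6a. On the RefSeq gene order, Krt75, Gm5414, Krt6b, Krt6a and Krt5 follow each other on chromosome 15, and Krt14, Krt16, Krt17 and Krt42 on chromosome 11.

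Krt75, the type II keratin of the companion layer and medulla, was dim as a gene but highest in CD34+ cells. Its level was 2.18, 2.09 and 1.98 in Gata6+Itga6− cells, 1.92, 1.78 and 1.93 in Gata6+Itga6+ cells, 2.57, 2.34 and 2.48 in CD34+ cells and 2.10, 1.96 and 2.02 in the remaining basal cells. All CD34+ arrays lay above all others, and their mean of 2.46 ± 0.12 was the only one above the silent level, so these differences carry no useful fold. Gata6+Itga6+ cells lay lower than CD34+ cells by 0.58 (log2 change -0.58, SE 0.10, limma adjusted p = 0.00686). Gata6+Itga6− cells were also called lower than CD34+ cells (-0.38, SE 0.10, adjusted p = 0.0405), and CD34+ cells higher than the remaining basal cells (0.43, SE 0.10, adjusted p = 0.0298). Both of these smaller differences depended on the arrays used. The comparison with Gata6+Itga6− cells kept its call only without CD34+ replicate 2 (0.0382), and lost it without any other single array, at adjusted p from 0.0506 to 0.148. The comparison with the remaining basal cells lost its call without CD34+ replicate 1 or 3 or any remaining basal array, at 0.0541 to 0.110.

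Of the 9 Krt75 probe sets, 2 showed a clearly larger difference than the gene median, and the 9 did not follow each other closely. Between CD34+ and remaining basal cells 7 changes were positive and 2 negative, from -0.04 to 2.08. Over the 12 arrays pairs within Krt75 had r from -0.30 to 0.95 (median 0.21, 36 pairs). Probe set 4506661 read 2.78, 2.27 and 1.78 in Gata6+Itga6− cells, 2.26, 2.49 and 1.66 in Gata6+Itga6+ cells, 4.97, 4.46 and 3.61 in CD34+ cells and 2.10, 2.41 and 2.28 in the remaining basal cells. Probe set 5298481 read 2.75, 2.12 and 2.63, then 1.84, 1.78 and 1.94, then 3.52, 3.61 and 3.83, and then 2.06, 1.92 and 2.02 in those populations. Both had every CD34+ array above all others and were called in all 3 comparisons with CD34+ cells. Against the remaining basal cells, CD34+ cells were higher by 2.08 in the first (SE 0.37, limma adjusted p = 0.0132) and by 1.65 in the second (SE 0.19, adjusted p = 0.000776). Probe set 4306153 was called only between Gata6+Itga6− and CD34+ cells (-0.94, limma adjusted p = 0.0261). The other 6 Krt75 probe sets were called in no comparison. Over the 12 arrays the gene levels of Krt75 and Krt6a had r = 0.82, against 0.28 for Krt6b and Krt6a and -0.39 for Krt16 and Krt6a, as a description over arrays of 4 populations.

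Krt16, the type I chain of activated keratinocytes, had a different pattern from Krt6a. Its level was 3.14, 3.13 and 2.18 in Gata6+Itga6− cells, 1.87, 1.70 and 1.97 in Gata6+Itga6+ cells, 1.40, 1.56 and 1.51 in CD34+ cells and 2.14, 1.88 and 1.87 in the remaining basal cells. Every Gata6+Itga6− array lay above all others, and only the mean of that population, 2.82 ± 0.55, was above the silent level. Gata6+Itga6− cells were higher than CD34+ cells by 1.33 (SE 0.23, limma adjusted p = 0.00425). They were also called higher than Gata6+Itga6+ cells by 0.97 (SE 0.23, adjusted p = 0.0490), and differed from the remaining basal cells by 0.85 (adjusted p = 0.0623). Gata6+Itga6− replicate 3 was the low array of its group. Without it both differences were called, at adjusted p = 0.00140 and 0.000924, and so was a lower level in CD34+ than in remaining basal cells (0.0483). Without any other single array the difference from Gata6+Itga6+ cells was not called, at adjusted p from 0.0628 to 0.171.

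Outside CD34+ cells the gene level of Krt16 leaves out its brightest probe set. With 4 probe sets the median is the mean of the middle 2, and 5316707 was the highest of the 4 on every array but those of CD34+ cells. On some CD34+ arrays it was among the middle 2, so gene changes against CD34+ cells do not compare the same probe sets. The gene change of 0.97 against Gata6+Itga6+ cells is the mean of 0.73 in 5190325 and 1.20 in 5250952, neither called alone (limma adjusted p = 0.471 and 0.0792). Probe set 5316707 showed larger differences. It read 7.22, 6.56 and 5.73 in Gata6+Itga6− cells, 3.57, 4.03 and 3.77 in Gata6+Itga6+ cells, 1.62, 1.43 and 1.65 in CD34+ cells and 4.84, 2.67 and 3.25 in the remaining basal cells. The Gata6+Itga6− arrays were above all others and the CD34+ arrays below all others. Gata6+Itga6− cells were called higher than Gata6+Itga6+ cells by 6.56-fold (log2 change 2.71, SE 0.51, limma adjusted p = 0.0386; 0.265% of all probe sets were called higher). They were called higher than the remaining basal cells by 7.56-fold (2.92, limma adjusted p = 0.0132, 1.37% of all probe sets). They were also called higher than CD34+ cells by at least 16.9-fold (4.93, limma adjusted p = 0.000281, 1.55% of all probe sets). The remaining basal cells and Gata6+Itga6+ cells overlapped. Probe set 5250952 followed at a lower level, with 3.86, 3.34 and 2.85 in Gata6+Itga6− cells and 1.89 to 2.78 on all other arrays, and was not called. Probe set 5190325 read 2.42, 2.92 and 1.52 in Gata6+Itga6− cells and 1.15 to 1.87 on all other arrays, and 5109179 stayed between 1.18 and 1.49; neither was called.

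The pattern of Krt16 was also set beside that of Krt17, its neighbour and close relative. Krt17 averaged 7.73 in Gata6+Itga6− cells, 6.03 in Gata6+Itga6+ cells, 5.0 in CD34+ cells and 4.53 in the remaining basal cells. It was called higher in Gata6+Itga6− cells than in each other population, by 1.70, 2.73 and 3.20 in that order (limma adjusted p = 0.0119, 0.000181 and 0.000112). Between CD34+ and remaining basal cells neither gene was called, with a change of 0.48 for Krt17 and -0.47 for Krt16 (limma adjusted p = 0.518 and 0.358). Of the 7 Krt17 probe sets, 5183051 and 5228869 were called higher in CD34+ than in remaining basal cells, by 2.09 and 2.22 (limma adjusted p = 0.00215 and 0.000209), where 1.77% of all probe sets were called higher. The other 5 were not called, with changes of 0.02 to 1.30. Krt16 probe set 5316707 differed by -2.02, which was not called. Over the 12 arrays the pairs of a Krt16 and a Krt17 probe set had r from -0.25 to 0.79 (median 0.61, 28 pairs). Whether probe set 5316707 also reads Krt17 transcripts was not tested.

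Counted over the 6 comparisons, the 4 keratins gave 8 calls. Between Gata6+Itga6− and CD34+ cells 3 of the 4 were called, Krt6a and Krt75 lower and Krt16 higher (3.22% of all genes were called higher and 4.74% lower). Between Gata6+Itga6+ and CD34+ cells 2 were called, Krt6a and Krt75, both lower (2.18% of all genes were called lower). Between CD34+ and remaining basal cells the same 2 were called, both higher (3.32%). Krt16 alone was called between Gata6+Itga6− and Gata6+Itga6+ cells, as higher (1.17%). None was called between Gata6+Itga6− and remaining basal cells (5.11% in either direction) or between Gata6+Itga6+ and remaining basal cells (1.36%); with each probe set fitted alone, the first of these pairs gave calls in Krt6a and Krt16 and the second still gave none (0.440% of all probe sets were called higher and 0.0877% lower). At an unadjusted limma p under 0.05 these pairs gave 2 (Krt6a and Krt16) and 1 (Krt6a) of the 4. Arrays of the compared populations did not overlap for 2 of the 4 keratins between Gata6+Itga6− and Gata6+Itga6+ cells (19.4% of all genes), 3 between Gata6+Itga6− and CD34+ cells (22.7%), 2 between Gata6+Itga6− and remaining basal cells, 3 between Gata6+Itga6+ and CD34+ cells (19.5%), 2 between Gata6+Itga6+ and remaining basal cells (15.7%) and 3 between CD34+ and remaining basal cells (18.8%).

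**Figure D3:**
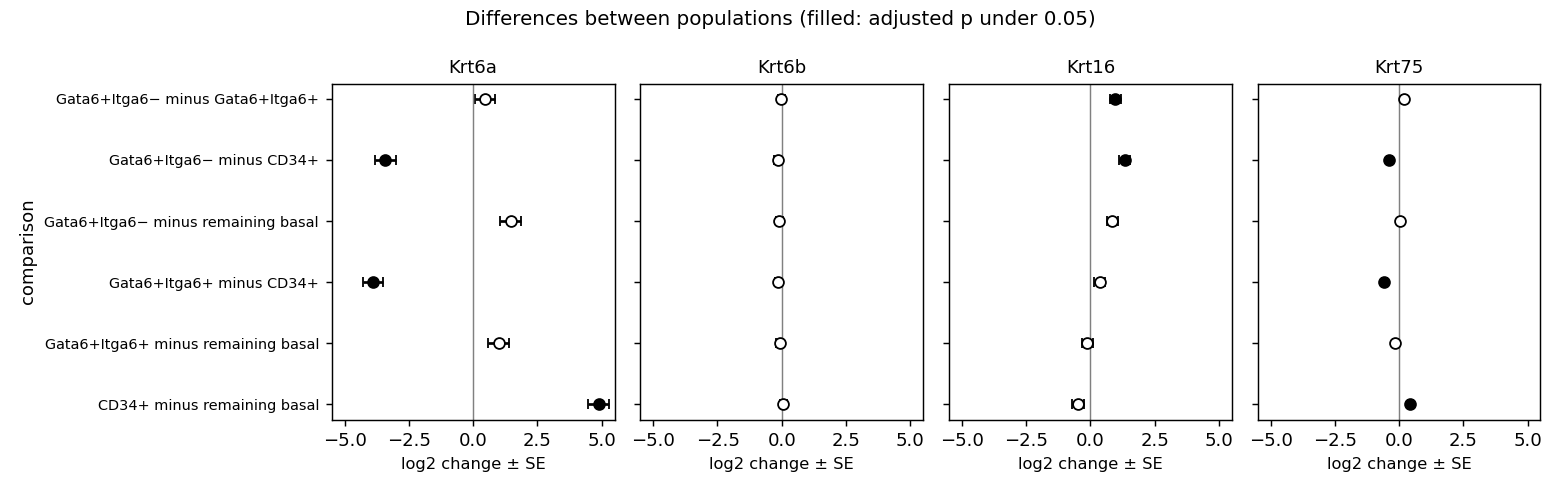
Log2 change of each keratin (x axis, ± SE from the limma fit over 12 arrays) in the 6 comparisons (y axis, first population minus second); filled points had an adjusted p under 0.05 over all genes. Krt6a lies at -3.42 and -3.89 in the comparisons of Gata6+ cells with CD34+ cells and at 4.88 for CD34+ minus remaining basal cells, while every Krt6b point lies within 0.15 of 0.

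Other genes of the companion layer and inner bulge did not move as 1 group. Of 9 listed, 8 were measured. In CD34+ cells against the remaining basal cells 1 was called higher and 0 lower (3.32% and 1.67% of all genes). The median change was 0.04, against 0.02 over all genes. The called gene was Fgf18, a growth factor made by inner bulge cells that holds follicles in telogen. It read 3.63, 4.40 and 1.54 in Gata6+Itga6− cells, 1.88, 1.87 and 1.44 in Gata6+Itga6+ cells, 5.52, 5.94 and 5.67 in CD34+ cells and 1.90, 2.27 and 1.61 in the remaining basal cells. CD34+ arrays were highest, as for Krt6a, and 1 Gata6+Itga6− array lay under the silent level while the other 2 did not. CD34+ cells were higher than the remaining basal cells by 3.78 (SE 0.57, limma adjusted p = 0.00293), and Gata6+Itga6− and Gata6+Itga6+ cells were lower than CD34+ cells by 2.52 and 3.98 (log2 change -2.52, adjusted p = 0.0209, and -3.98, adjusted p = 0.00251). Krt17 led the list in Gata6+Itga6− cells. Against the remaining basal cells, the list's median change there was 0.66, against 0.00 over all genes. In that comparison 2 were called higher, Krt17 and Krt80, and 1 lower, Cdh3 (2.96% and 2.15% of all genes). Cdh3, the placental cadherin of matrix and outer root sheath cells, was lower in Gata6+Itga6− cells than in CD34+ and remaining basal cells (-1.12 and -1.22, limma adjusted p = 0.0213 and 0.0195).

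Genes of wounding and hyperproliferation, of which 32 of 35 listed were measured, included 13 that exceeded the silent level in any population, against 52.1% of all genes, and 7 that were called by the F test, against 9.38%. In Gata6+Itga6− cells against the remaining basal cells 3 were called higher and 2 lower (2.96% and 2.15% of all genes, median change -0.02, against 0.00 over all genes), and in CD34+ cells against the remaining basal cells 1 higher and 2 lower (3.32% and 1.67% of all genes, median -0.03, against 0.02). The called genes had several patterns. Sprr1a, a cornified envelope precursor, averaged 9.78 in Gata6+Itga6− cells, 7.15 in Gata6+Itga6+ cells, 2.62 in CD34+ cells and 3.39 in the remaining basal cells, and Ivl, another envelope protein, averaged 5.67, 2.81, 1.54 and 1.51 in the same order. Serpinb2, a stress-induced protease inhibitor, averaged 3.13 in Gata6+Itga6− cells, 4.64 in Gata6+Itga6+ cells and 3.06 in CD34+ cells, against 6.91 in the remaining basal cells, where it was highest. Tnc, a matrix protein of wound beds, was the called gene that was higher in CD34+ cells, at 4.22, 3.57 and 4.81, against 1.84 to 2.09 on the arrays of the remaining basal cells (change 2.26, limma adjusted p = 0.000319). S100a8, S100a9 and Sprr1b, alarmin and envelope genes that rise in psoriatic and wounded skin, had means under the silent level in all 4 populations.

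**Figure D4:**
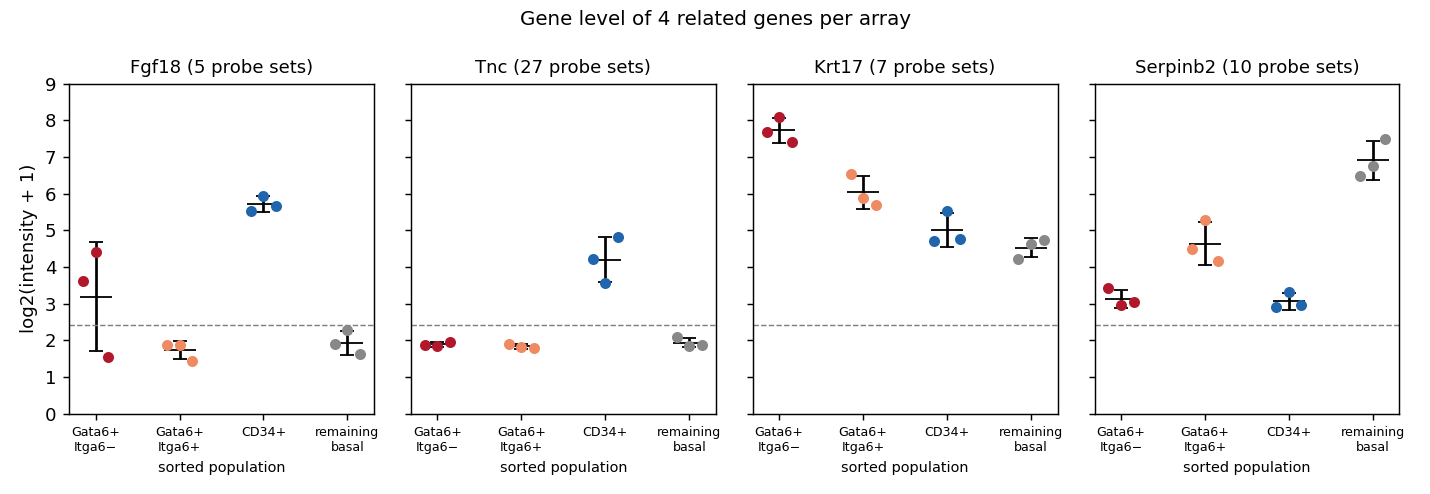
Gene level (y axis, log2 of intensity plus 1) of Fgf18, Tnc, Krt17 and Serpinb2 on each array by population (x axis); points are arrays, bars the mean ± SD (n = 3), and the dashed line the silent level of 2.42. Fgf18 and Tnc are highest on the CD34+ arrays, Krt17 on the Gata6+Itga6− arrays and Serpinb2 on those of the remaining basal cells.

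Among the other keratins, 4 of 18 type II and 5 of 27 type I genes measured were called by the F test, against 9.38% of all genes. In CD34+ cells against the remaining basal cells, where Krt6a and Krt75 were higher, 3.32% of all genes were called higher and 1.67% lower. Of the other type II genes 0 were called higher and 2 lower, Krt1 and Krt77. Of the other type I genes Krt24 was called higher and Krt10 lower. Krt5, the basal type II keratin next to Krt6a on the chromosome, averaged 6.67 in Gata6+Itga6− cells, 9.17 in Gata6+Itga6+ cells, 9.47 in CD34+ cells and 9.54 in the remaining basal cells. Its CD34+ and remaining basal levels differed by -0.08, and pairs of a Krt6a and a Krt5 probe set had r from 0.00 to 0.34 over the 12 arrays. Of 20 transcription factors and other regulators linked to keratin genes, 3 were called higher and 4 lower in CD34+ than in remaining basal cells (3.32% and 1.67% of all genes). Gli2, a Hedgehog effector, averaged 4.56 in CD34+ cells and 2.21 in the remaining basal cells, and Grhl3, a factor of barrier formation and wound repair, averaged 2.91 in CD34+ cells and 3.94 in the remaining basal cells.

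By Pearson r of level over the 12 arrays, among 7791 genes with a mean above the silent level, the genes most like Krt6a were Wwp2 (0.990), Adamtsl4 (0.970), Id2 (0.964), Wfdc3 (0.962) and P2rx7 (0.959). All 5 had their highest mean in CD34+ cells. The genes most like Krt75 were Adcy1 (0.915), Cited2 (0.901), Chat (0.898), Tnc (0.898) and Tmtc1 (0.895), also highest there. Those most like Krt16 were Pak3 (0.926), Pglyrp4 (0.913), Fut2 (0.907), Ly6g6e (0.898) and Notch3 (0.894), highest in Gata6+Itga6− cells. Of these, Fut2 was not called by limma's F test (adjusted p = 0.128). For Krt6b the best were Pglyrp1 (0.877), Dusp9 (0.874), Ntan1 (0.844), Scx (0.831) and Tgfb1 (0.827), none of which was called by the F test. These are the top of a ranking over 4 populations and are given as a description.

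The dermal fibroblast and melanocyte lists held genes called higher in CD34+ than in remaining basal cells. The Langerhans cell and macrophage list and the T cell list held none. Of 10 dermal fibroblast markers, 4 (Sparc, Col1a2, Col6a1 and Col6a2) were called higher in CD34+ cells than in the remaining basal cells (3.32% of all genes). The list's summed intensity was 27.2 to 29.6 in Gata6+Itga6− cells, 28.0 to 31.8 in Gata6+Itga6+ cells, 421 to 500.0 in CD34+ cells and 51.7 to 86.4 in the remaining basal cells. The other 6 were not called, and 5 of the 10 (Dcn, Lum, Col3a1, Pdgfra and Pdgfrb) had means under the silent level in every population. Of 7 melanocyte markers, Mitf and Mlana were called higher in CD34+ than in remaining basal cells (3.32% of all genes). The sums were 26.8 to 34.2, 29.2 to 33.3, 70.2 to 76.4 and 21.3 to 23.8 in the order above, and the other 5 were under the silent level throughout. Of 10 Langerhans cell and macrophage markers only Epcam was called, and the sums were 135 to 149, 47.8 to 93.5, 41.1 to 46.2 and 33.5 to 39.6; 7 of the 10, Cd207 and Ptprc among them, were under the silent level throughout. Of 5 T cell markers measured, 0 were called in any comparison. The immediate early genes, which respond to cell isolation, summed to 868 to 1097 in Gata6+Itga6− cells, 783 to 1155 in Gata6+Itga6+ cells, 465 to 576 in CD34+ cells and 785 to 1324 in the remaining basal cells, and 7 of 20 were called lower and 1 higher in CD34+ than in remaining basal cells (1.67% and 3.32% of all genes). Their part in the keratin differences was not tested.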

How the data were processed

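The authors hybridized biotin-labelled cDNA, amplified from the RNA of sorted cells, to Affymetrix mouse exon arrays, per the labels' protocols. The deposited values are intensities of 235932 probe sets, made with RMA in Affymetrix Power Tools with mm9 as the build, according to the submitters' processing notes, which give no versions. RMA usually gives log2 values, but medians of 3.97 to 4.57 and maxima of 2172 to 2953 were read as linear, and every fold rests on that.

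Probe sets with 1 gene symbol were used (1684 had several, 13043 no listed gene); 2489 symbols were brought up to date with a RefSeq table. Values became log2 of intensity plus 1. limma 3.58.1 (R 4.3.3) fitted 1 mean for each population over the 12 arrays together (prior degrees of freedom 2.12, residual 8), and Benjamini-Hochberg adjustment ran over all genes of a comparison, with 0.05 as the threshold. An exact permutation test of 3 against 3 cannot go below 0.1 and was not used. Folds against a mean under the silent level are lower bounds taken at that level. For single probe sets these bounds are rough, because the silent level came from gene levels. The fit of each probe set alone over 221205 probe sets was added after the values were seen. The fit was tested on simulated data.

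The 4 keratins and all gene lists were chosen with earlier results of these data known. Named genes were the 4 keratins, at most the 3 genes of each list with the smallest F p, the 5 genes with the highest correlation to each keratin and the sort genes; Krt1, Col1a2, S100a8, S100a9, Sprr1b, Pdgfrb and the other markers named as under the silent level were picked after their values were seen. Genes not analysed here include Bmp6, Il36a, Il36g and Areg. Probe and protein sequences were not used here. Labels give replicate numbers in each population, but deviations of same-numbered arrays from their population means correlated at -0.14 to 0.28 (18 pairs), so the arrays were not treated as paired. P-values set each difference against the spread between these arrays, and the labels do not give the number of mice behind each array. Alternatives covered the probe set summary, the added constant, quantile normalization, filters, covariates, blocks and each array left out.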

Additional observations from a re-analysis of the deposited data

How the results depend on the processing

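Of 546 log2 changes of the 4 keratins recomputed under other settings, 474 kept their direction and their side of the threshold, 43 lost and 12 gained a call, and 17 changed sign. Krt6a kept all 3 of its calls against CD34+ cells in every setting run, with adjusted p up to 0.00943. Between Gata6+Itga6− and Gata6+Itga6+ cells the 1 call, Krt16, became 0 with 16 added before the log, with array brightness as a covariate, with only the 2 populations fitted and with the row letter of the array name as a block, and 0 to 1 with an array left out. With the replicate block it also became 0 (Krt16 adjusted p = 0.0707); no other count of called keratins changed under that block. Between Gata6+Itga6− and CD34+ cells 3 calls became 2, through Krt75, after quantile normalization, with the dimmest genes left out, with brightness as a covariate, with only the 2 populations and with the row letter block. Between Gata6+Itga6− and remaining basal cells the count of 0 became 1 with the mean or the brightest probe set and with the dimmest genes left out, 2 with dim probe sets left out, after quantile normalization or with each probe set alone, and 0 to 1 with an array left out. Between CD34+ and remaining basal cells the count of 2 became 1, through Krt75, after quantile normalization, with the dimmest genes left out, with brightness as a covariate, with only the 2 populations and with the row letter block, and 1 to 3 with an array left out. Between Gata6+Itga6+ and CD34+ cells it became 1 with only the 2 populations. Krt75 lost its F test call with the dimmest genes left out (adjusted p = 0.0684) and ranged from 0.0208 to 0.0644 with an array left out; Krt16 ranged from 0.000271 to 0.0687. Sign changes were those of uncalled differences: Krt6b between Gata6+Itga6− and Gata6+Itga6+ cells turned to 0.14 (mean), 0.45 (brightest, and dim probe sets left out), 0.0011 (16 added), 0.028 (quantile) and, with an array left out, ranged from -0.085 to 0.051; Krt6b between Gata6+Itga6− and CD34+ cells to 0.18 (brightest, and dim left out); Krt6b between Gata6+Itga6+ and CD34+ cells to 0.0099 without CD34+ replicate 2; Krt6b between CD34+ and remaining basal cells to -0.0055 (mean), -0.22 (brightest, and dim left out) and, with an array left out, from -0.097 without CD34+ replicate 2 to 0.13; and Krt16 between Gata6+Itga6+ and remaining basal cells to 0.21 (brightest) and 0.086 (dim left out). The cause was not tested. Over all genes, the number called moved by over 1.5 times in all 6 comparisons with the mean of probe sets. In the order Gata6+Itga6− against Gata6+Itga6+, CD34+ and remaining basal cells, Gata6+Itga6+ against CD34+ and remaining basal cells, and CD34+ against remaining basal cells, it gave 995, 2159, 1403, 1300, 454 and 1513, against 567, 1421, 913, 819, 242 and 892. The first also became 370 with the brightness covariate, the fourth 503 with the brightest probe set, the fifth 151, 127 and 110 with 16 added, the covariate and only the 2 populations, and the last 571 with only the 2 populations; with an array left out the first ranged down to 285 and the fifth to 131. Quantile normalization gave 584 higher and 505 lower, against 593 and 299, between CD34+ and remaining basal cells. Signal near the silent level limits Krt6b, Krt75 and 2 of the 4 Krt16 probe sets.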

Other observations

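Some keratins outside the companion layer and wound group also showed large steps between these populations, though not all in the comparison where Krt6a did. Krt79, a type II keratin of the upper follicle, averaged 9.52 in Gata6+Itga6− cells, 7.91 in Gata6+Itga6+ cells, 2.63 in CD34+ cells and 3.12 in the remaining basal cells. Krt23, a type I keratin, averaged 6.56, 2.22, 1.55 and 1.58 in the same order; only the mean of Gata6+Itga6− cells was above the silent level. Krt24, a type I keratin of bulge cells, averaged 8.73 in CD34+ cells and 1.80 in the remaining basal cells. All 3 were called by limma's F test (adjusted p = 7.29e-08 for Krt79, 7.29e-08 for Krt23 and 3.73e-07 for Krt24).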
